A study of Homo sapiens with 6 samples.

Results

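The genes described here encode proteins that myeloid cells pack into granules, with a lysozyme gene and a few proteins that load or guard the granules. They are MPO, ELANE, AZU1, PRTN3, CTSG, LYZ, SRGN, CST7, RNASE2 and SERPINB1, 10 of the 25420 genes in the deposited 3′ UTR annotation. A gene was found by its Entrez identifier, and its reads were summed over all its 3′ UTR entries. The libraries come from MOLM-13, an established human acute myeloid leukaemia line, exposed for 2 h to either 10 µM C646 or its solvent DMSO, with 3 libraries in each group. C646 inhibits the lysine acetyltransferases CBP and p300. In both groups the cells also received 100 µM 4-thiouridine (4sU) during the second 1 h, so the DMSO controls carry the label too and no unlabelled library is among the 6 used here.

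SLAM-seq turns incorporated 4sU into T > C conversions in the reads, so that T > C reads come from RNA made during labelling and the other reads mostly from older RNA. The share of a gene's reads that are T > C reads (the T > C share) was used as a measure of how fast its mRNA is renewed. Sequencing errors also give T > C reads, and their level was not measured here. Libraries were 3′ end libraries, in which a transcript gives reads from its end whatever its length, and levels are CPM, the counts scaled to a common total of reads on 3′ UTRs, with TMM-scaled library sizes. The 6 libraries held 7252597 to 10225448 reads on 3′ UTRs and 477824 to 833410 T > C reads. The T > C share of a whole library was 8.79% ± 0.0637 in DMSO and 6.48% ± 0.203 in C646 (SD, n = 3). Of the filtered reads, 49.7% to 51.6% fell on 3′ UTRs in DMSO and 56.3% to 62.0% in C646, with the highest share in C646 replicate 3. Neither the labels nor the methods say that replicates were separate cultures, so p-values measure the spread between these libraries, which may be technical.

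Neutrophil granules are filled in steps. Azurophil (primary) granules are loaded at the promyelocyte stage with myeloperoxidase, serine proteases and lysozyme. The genes of myeloperoxidase and the serine proteases are switched on by PU.1, C/EBP factors and RUNX1 and switched off as cells mature. The proteins are long-lived and stored, and serglycin holds many of them in the granule while cytosolic serpins limit damage from proteases that leak out. Eosinophil granules hold related but distinct cargo, such as the ribonuclease RNASE2.

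The label of the cells was checked against markers. Of 15 myelomonocytic markers, 12 averaged 50 or more reads, led by TYROBP at 1675 CPM, while CD14 and CSF2RA had at most 3 reads in every library. All 7 erythroid and all 4 megakaryocytic markers were at that floor, as were the progenitor genes CD34 and PROM1. The summed myelomonocytic markers ranged from 2674 to 3542 CPM in DMSO and from 1620 to 2474 CPM in C646, and their part in the results below was not tested. Of 5 mast cell and eosinophil markers, 2 averaged 50 or more reads and TPSAB1 and CPA3 were at the floor. Their sum, led by PRG2, ranged from 654 to 853 CPM in DMSO and from 226 to 528 CPM in C646, lower in C646 as RNASE2 was, and its part in that was not tested. Of 6 T and NK cell markers 1, NKG7, averaged 50 or more reads (sum 78.6 to 103 CPM in DMSO and 33.5 to 72.7 CPM in C646), with CD3E, CD3G and CD2 at the floor, and of 4 B cell markers 0 did. In bulk libraries, fewer cells of a type and less RNA per cell cannot be told apart.

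The granule genes spanned more than 4 orders of magnitude in DMSO. SRGN, the serglycin gene, was the 2nd most abundant mRNA among 8607 genes that averaged 50 or more reads in a library, at 13402 ± 434 CPM (SD, n = 3), which is 1.35% of all reads on 3′ UTRs. LYZ, which encodes lysozyme, ranked 37 at 2802 ± 166 CPM, and RNASE2, the eosinophil-derived neurotoxin, ranked 44 at 2518 ± 221 CPM. An intermediate group held SERPINB1, a cytosolic inhibitor of neutrophil serine proteases, at 284 ± 26.8 CPM, CTSG, the protease cathepsin G, at 239 ± 44.1 CPM, and CST7, the cathepsin inhibitor cystatin F, at 161 ± 17.5 CPM. MPO, the peroxidase that defines azurophil granules, reached only 53.0 ± 8.83 CPM and rank 3333.

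The 3 serine protease genes that are neighbours on chromosome 19 were scarce or close to absent. PRTN3, proteinase 3, had 100, 45 and 60 reads in DMSO replicates 1, 2 and 3. ELANE, neutrophil elastase, had 4, 2 and 15 reads, and AZU1, the inactive protease homologue azurocidin, had 6, 3 and 4 reads. Of the serine protease family among the 10 genes, CTSG alone had over 1000 reads in a library, and PRSS57, which is not among them, is described further on. ELANE and AZU1 were too low for any test, and their 1 and 4 T > C reads in DMSO allow no statement on turnover. For these 3 neighbouring genes the annotation has a further copy on the alternative contig 19_KI270868v1_alt, and the entry with the most reads held 69.7% of the reads of ELANE, 58.8% of AZU1 and 59.2% of PRTN3, so that only their sums were used.

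**Figure D1:**
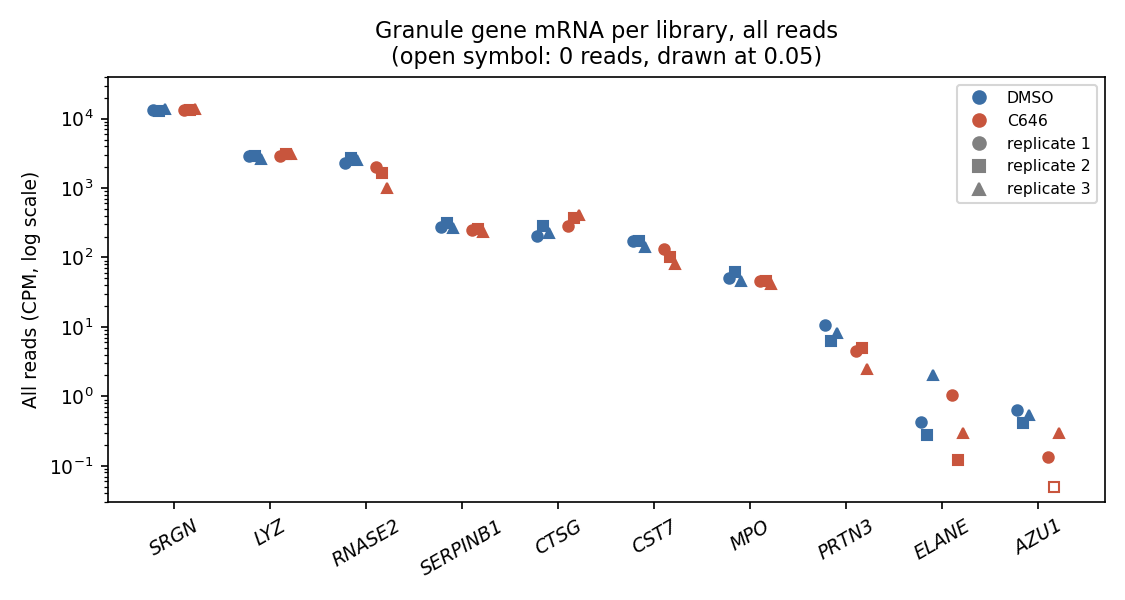
Level of each gene in each library, as all reads in CPM on a log axis, for DMSO (blue) and C646 (red), with a symbol for each replicate. SRGN lies near 13402 CPM in DMSO and AZU1 below 1 CPM, and an open symbol marks a library with 0 reads.

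Baseline turnover was read from the DMSO libraries. Over 8607 genes the median T > C share was 11.6%, with quartiles of 6.82% and 19.4%, and each of the 8 granule genes that could be placed lay below this median. The order from fastest to slowest was SERPINB1, SRGN, CTSG, CST7, LYZ, PRTN3, MPO and RNASE2. Within it, the libraries of neighbours overlapped except between SERPINB1 and SRGN and between CST7 and LYZ, although the gap at CST7 is one between neighbours in the order of means: PRTN3 reached 4.44% in DMSO replicate 2 and CST7 was at 4.37% in DMSO replicate 1.

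The first 4 genes of this order lay between percentiles 17.2 and 32.5 of all genes. SERPINB1 had T > C shares of 8.42%, 8.51% and 7.54% in DMSO replicates 1, 2 and 3 (percentile 32.5). SRGN followed with 6.73%, 7.25% and 6.64% (percentile 25.4), and CTSG with 7.60%, 6.06% and 5.88% (percentile 23.1). CST7 was more spread, with 4.37%, 6.89% and 5.35% (percentile 17.2). SRGN thus combined one of the largest mRNA pools of the cell with a T > C share whose libraries all lay above those of LYZ and RNASE2.

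LYZ had 3.66%, 3.35% and 3.27% (percentile 6.31). RNASE2 had the lowest mean share, with 2.62%, 2.50% and 2.86% (percentile 3.44), within the range of MPO and of PRTN3, and its pooled share of 2.66% has a 95% Wilson interval of 2.53% to 2.79%. Such intervals cover counting error only, since PCR reads are not independent molecules. MPO, with 15, 6 and 13 T > C reads of 487, 451 and 335 reads, had shares of 3.08%, 1.33% and 3.88% (percentile 3.71, but 6.96 without DMSO replicate 2 and 2.23 without DMSO replicate 3). PRTN3 rested on 6 T > C reads of 205 (percentile 4.79, but 7.63 without DMSO replicate 3 and 3.00 without DMSO replicate 2), with an interval of 1.35% to 6.24%. The last 4 genes were thus LYZ, RNASE2 and the azurophil genes MPO and PRTN3. CTSG, also azurophil cargo, was among the first 4, and ELANE and AZU1 could not be placed.

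**Figure D2:**
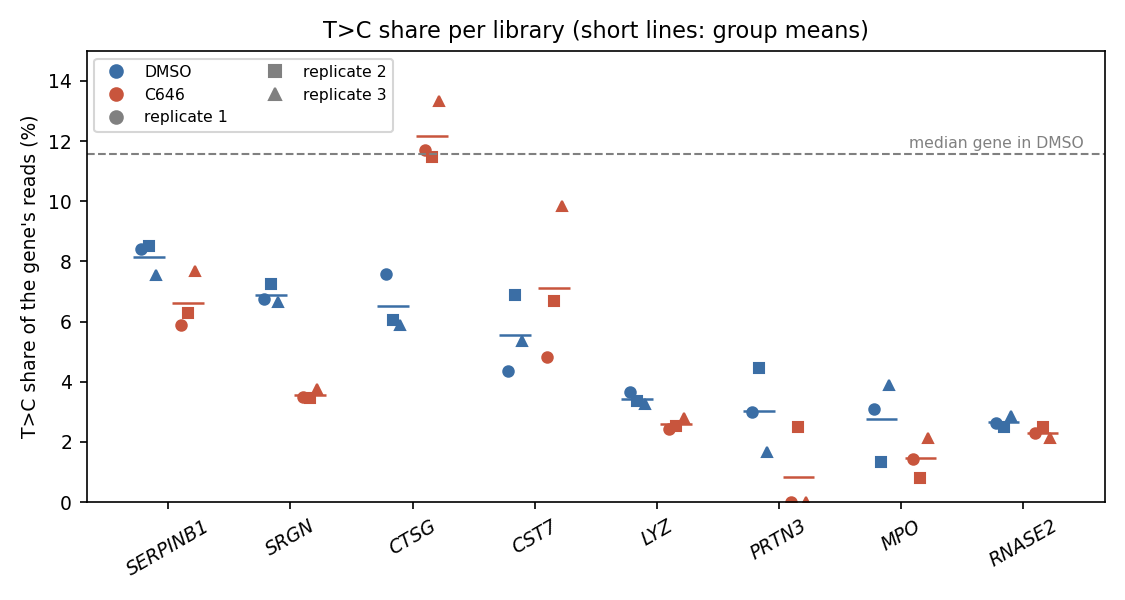
T > C share of the reads of 8 genes in each library (y axis, percent), ordered by the DMSO mean, with DMSO in blue, C646 in red, short lines for group means and a dashed line at the DMSO median of 11.6% over 8607 genes. All DMSO points lie under the dashed line, SRGN falls from a mean of 6.87% to 3.56% and CTSG goes from 6.51% to 12.2%.

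A read can show a conversion only where it covers a T. CTSG, CST7 and PRTN3 have short 3′ UTRs, of 119, 216 and 206 bases, and a read of theirs covered 17.03, 17.9 and 10.6 T positions on average within the entry in DMSO, against a median of 30.9 over the 8607 genes. Counted as conversions per 1000 covered T positions, where the median gene had 7.79, the means of the DMSO libraries were 4.77 for SERPINB1, 4.56 for CTSG, 4.55 for SRGN, 3.46 for CST7, 2.35 for LYZ, 1.996 for MPO, 1.64 for RNASE2 and 1.47 for PRTN3. The same 4 genes came first by this count, and the percentiles ranged from 2.09 for PRTN3 to 28.4 for SERPINB1.

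The 3′ UTRs were searched for ATTTA, the core of AU-rich elements that are known for marking mRNAs for decay. The coordinates are those of the deposited entries on GRCh38, which overlap a UTR that GENCODE release 44 gives to that gene, for all of the genes except ELANE and AZU1, whose most read entries lie on the alternative contig. MPO, on the minus strand at chr17:58269856-58270655, held 3 ATTTA in 800 bases, and LYZ, on the plus strand at chr12:69353220-69354233, held 2 in 1014 bases. Such counts are common, since 67.5% of 3′ UTRs within 20% of the length of MPO and 75.0% of those near the length of LYZ held at least 1, with medians of 1 and 2. SERPINB1 (chr6:2832332-2834012, minus strand, 1681 bases) held 1, while 87.9% of 3′ UTRs within 20% of its length held at least 1, with a median of 3. SRGN (chr10:69104121-69104811, plus strand, 691 bases) held 0, while 62.9% of 3′ UTRs within 20% of its length held at least 1. CTSG (chr14:24573518-24573636, minus strand), RNASE2 (chr14:20956258-20956435, plus strand), CST7 (chr20:24959713-24959928, plus strand) and PRTN3 held 0 in their short 3′ UTRs. Near their lengths, 18.4%, 27.2%, 31.7% and 30.5% of 3′ UTRs held at least 1. Of the last 4 genes in the order of T > C shares, MPO and LYZ thus held ATTTA and RNASE2 and PRTN3 held 0. A link between ATTTA and the T > C share was not tested. The windows of 30 bases around the ATTTA of MPO and LYZ are shown, 5′ to 3′ on the transcript strand with ATTTA in capitals, because they let the motif be seen in its context in mRNAs of low T > C share.
MPO, chr17:58270408-58270437: tgtgtatgtgccATTTAtgtgagtgtgtgt
MPO, chr17:58270173-58270202: ctctggttcttcATTTAttgagcacctact
MPO, chr17:58269892-58269921: cctttctgtaccATTTAtttgctcccaatg
LYZ, chr12:69353437-69353466: atactggtgaaaATTTAcctaaaaccttgg
LYZ, chr12:69354087-69354116: ttaatttgattaATTTAattcatgtattat

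C646 was then compared with DMSO, which asks what 2 h of CBP and p300 inhibition does to new and to total mRNA. New RNA (T > C reads) was scaled by the same library sizes as all reads, and on this scale the median of all 7722 genes tested was −0.83 (log2), so that a gene at −0.83 moved with the bulk of genes. Against this, CTSG rose 2.79-fold, SRGN and RNASE2 fell by close to the median, and LYZ, CST7 and SERPINB1 did not pass an adjusted p of 0.01. With T > C reads scaled among themselves (TMM), which takes out the shared shift, CTSG stood at 2.31 and passed, while SRGN at −0.10 and RNASE2 at −0.047 (log2) did not. Of the 6 granule genes tested, 2 passed lower and 1 passed higher, where 38.0% and 3.83% of all tested genes did, and 0 passed lower with a log2 fold change of at least 1, where 33.0% did. MPO, ELANE, AZU1 and PRTN3 had too few T > C reads for the filter and were not tested.

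CTSG was the granule gene whose new RNA rose. Its T > C reads made up 15.4, 17.5 and 13.3 CPM in DMSO replicates 1, 2 and 3 and 32.9, 41.9 and 53.8 CPM in C646 replicates 1, 2 and 3. Every C646 library lay above every DMSO library, which was so for 6.46% of all tested genes. The log2 fold change was 1.48 ± 0.20 (SE; edgeR's quasi-likelihood test, adjusted by Benjamini-Hochberg over all tested genes, adjusted p = 3.61e-07), at percentile 97.7 of all genes. It was also the one granule gene with an adjusted p of at most 0.01 and a log2 fold change of at least 1, as 2.97% of all tested genes were in the higher direction. The T > C share of CTSG went from 6.51% ± 0.942 to 12.2% ± 1.01 (SD, n = 3), and the odds that a CTSG read is a T > C read rose by a log2 of 0.995 ± 0.17 (SE; edgeR, adjusted p = 3.52e-05).

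The total CTSG mRNA was 203, 288 and 227 CPM in DMSO and 281, 365 and 403 CPM in C646. The groups overlapped by a narrow margin, and the log2 fold change of 0.55 ± 0.16 (SE) did not pass (edgeR, adjusted p = 0.0202). The mean gain was 111 CPM, of which 27.5 CPM were T > C reads. CTSG was highest in C646 replicate 3, and without that library the log2 fold change in T > C reads was 1.28. Under other settings the total passed the threshold: DESeq2 gave an adjusted p of 0.00906, edgeR without the filter on low counts 0.00161, and edgeR without DMSO replicate 2 and without C646 replicate 1 gave 0.00937 and 0.00600. Without any 1 of the other 4 libraries it did not pass, with adjusted p up to 0.0949 and a log2 fold change down to 0.44.

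The promoter of CTSG was looked up beside those of the other genes, 250 bases before to 50 after the start site, in RefSeq on GRCh38.p14, where 5 of the 10 genes were matched (SERPINB1, RNASE2, CTSG, AZU1 and PRTN3). The letters GAGGAA, the core of a PU.1 and ETS site, were sought on both strands and occurred at 2 places in CTSG and 1 in PRTN3, and in 27.6% of 27305 promoters of that length. The C/EBP letters TTGCNNAA occurred in RNASE2, AZU1 and PRTN3 and in 10.6% of all promoters, and the RUNX letters TGTGGT in none of the 5 and in 13.1% of all. The TATA box letters TATAA, also sought on both strands, occurred in RNASE2, AZU1, PRTN3 and SERPINB1 and in 21.1% of all promoters. The GAGGAA and TTGCNNAA matches of CTSG, PRTN3 and RNASE2 are shown with the motif in capitals, 5′ to 3′ on the gene's strand. In total RNA the mean of CTSG was higher in C646 and that of both others lower, and none of these differences passed. A link between a motif and the response to C646 was not tested. In the first CTSG window and the second PRTN3 window the match is on the opposite strand, so the capitals are the reverse complement of the motif. The matches lie 46 and 16 bases before the start site in CTSG, 88 (GAGGAA) and 62 (TTGCNNAA) bases before it in PRTN3 and 145 bases before it in RNASE2.
CTSG, chr14:24576279-24576308, minus strand: cccaccccttccTTCCTCtctcagggcctt
CTSG, chr14:24576249-24576278, minus strand: aaagtctaggagGAGGAAgcacagcagcaa
PRTN3, chr19:840899-840928, plus strand: ccaaggcaaaagGAGGAAgtggggacccag
PRTN3, chr19:840926-840955, plus strand: cagcctgggcaTTGGGCAActcaacggcct
RNASE2, chr14:20955331-20955360, plus strand: aaaaaggatgaTTGCACAAgtggactatgt

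**Figure D3:**
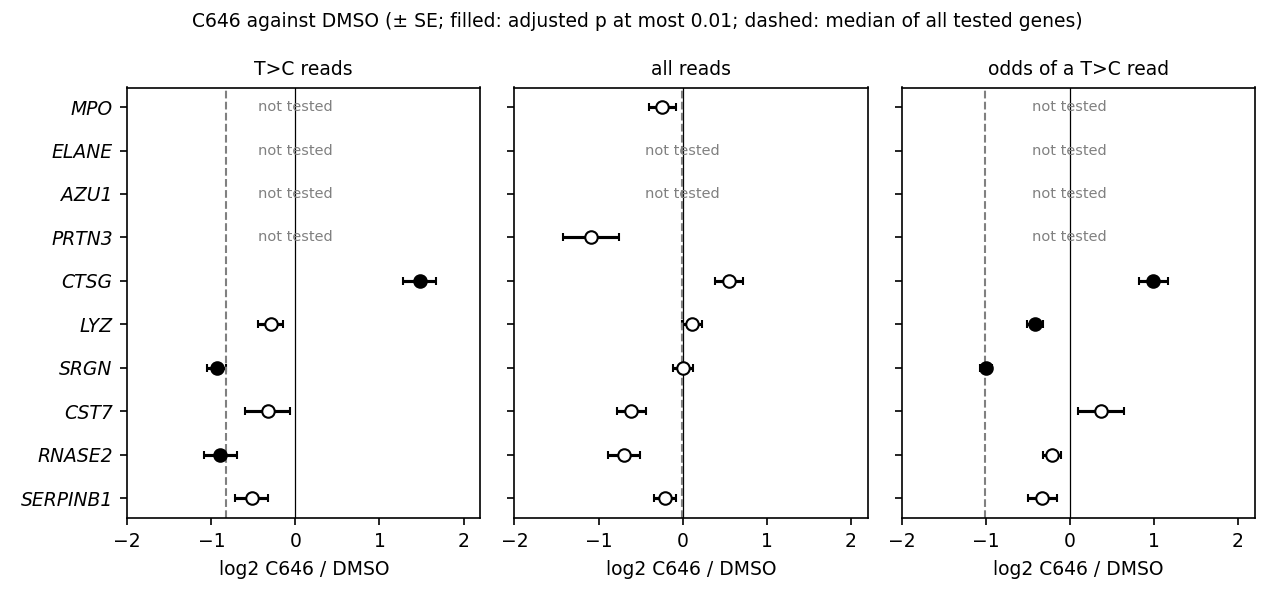
Log2 fold change of C646 over DMSO with its SE for the granule genes tested in T > C reads (6), in all reads (8) and in the odds of a T > C read (6), the others being marked as not tested, with filled points for an adjusted p of at most 0.01 and dashed lines at the medians of all tested genes (−0.83, −0.0030 and −1.004). CTSG stands at 1.48 in T > C reads, while SRGN sits near the dashed line in all 3 panels.

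SRGN, whose core protein carries the glycosaminoglycan chains that bind granule proteases, fell in new RNA, while its total differed by less than the spread between libraries. Its T > C reads came to 894, 945 and 922 CPM in DMSO and 460, 463 and 521 CPM in C646, with no overlap, as for 55.8% of all tested genes in that direction. The log2 fold change was −0.94 ± 0.11 (SE; edgeR, adjusted p = 5.26e-08), a 1.91-fold fall at percentile 45.1 of all genes. All reads were 13279, 13042 and 13884 CPM in DMSO and 13211, 13440 and 13820 CPM in C646, a log2 difference of 0.0095 with an approximate 95% interval of −0.22 to 0.24. The odds of a T > C read fell by 0.998 on the log2 scale (SE 0.069; edgeR, adjusted p = 5.40e-11), close to the median of all genes, −1.004. Genes were also compared with SRGN by their log2 values in each library, for T > C reads and all reads, each centred on the gene's mean. Of 2843 compared, the nearest were EIF1AX, NUP153 and ZC3H15, at a distance of 0.22, 0.23 and 0.26 (log2) where the median distance was 1.11. This distance holds the spread between replicates as well as the difference between groups.

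RNASE2 fell in new RNA, and its total lay lower in each C646 library than in any DMSO library. Its T > C reads were 59.7, 67.7 and 73.5 CPM in DMSO and 46.3, 40.7 and 21.4 CPM in C646, a log2 fold change of −0.89 ± 0.20 (SE; edgeR, adjusted p = 0.000386) with no overlap, as for 55.8% of all tested genes in that direction. Its total was 2276, 2709 and 2569 CPM in DMSO and 2012, 1630 and 1013 CPM in C646, again with no overlap, as for 23.1% of all tested genes in that direction. The log2 fold change of the total, −0.70 ± 0.19 (SE), did not pass (edgeR, adjusted p = 0.0146), and its adjusted p was 0.00202 with DESeq2 and 9.93e-06 by edgeR without the filter on low counts.

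The mean RNASE2 total was 966 CPM lower in C646, 935 CPM in reads without conversions, which are most of its reads, and 30.8 CPM in T > C reads. The T > C share was 2.66% ± 0.185 in DMSO and 2.30% ± 0.190 in C646 (SD, n = 3), and the odds did not pass (log2 −0.21 ± 0.11 (SE), edgeR, adjusted p = 0.0874), while the median gene was at −1.004. C646 replicate 3 was the lowest library. Without that replicate the log2 fold change was −0.47 in all reads and −0.62 in T > C reads, and without C646 replicate 1 the total stood at −0.92 and passed (edgeR, adjusted p = 0.00226), which it did not without any 1 of the other 5 libraries (adjusted p up to 0.0481). C646 replicate 3 also had the largest share of its filtered reads on 3′ UTRs, whose part in the RNASE2 values was not tested.

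The total of CST7 lay lower in each C646 library than in any DMSO library, and its T > C reads overlapped. The total was 171, 171 and 141 CPM in DMSO and 134, 103 and 79.8 CPM in C646, with no overlap, as for 23.1% of all tested genes in that direction. The log2 fold change of −0.61 ± 0.17 (SE) did not pass (edgeR, adjusted p = 0.0156). DESeq2 gave an adjusted p of 0.00462, edgeR without the filter on low counts 0.000598, and edgeR without C646 replicate 1 gave −0.81 with an adjusted p of 0.00258. Without C646 replicate 3 it was −0.44, and without any 1 library other than C646 replicate 1 it did not pass, with adjusted p up to 0.0667. The T > C reads were 7.48, 11.8 and 7.54 CPM in DMSO and 6.48, 6.86 and 7.84 CPM in C646 (log2 −0.33 ± 0.27 (SE), edgeR, adjusted p = 0.296; log2 −0.088 without DMSO replicate 2). The difference from RNASE2 was not tested. The mean total was 55.5 CPM lower in C646, of which 53.6 CPM were reads without conversions, again most of its reads.

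**Figure D4:**
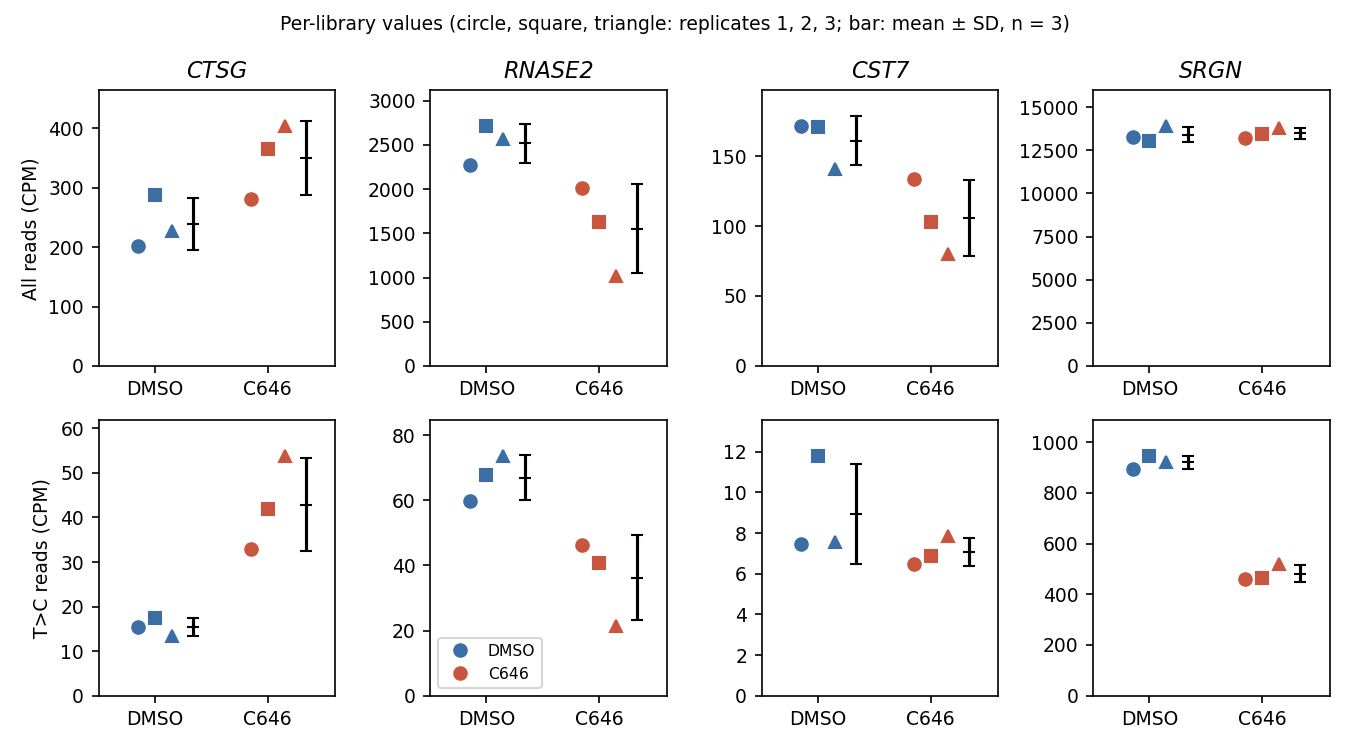
All reads (top) and T > C reads (bottom) in CPM for CTSG, RNASE2, CST7 and SRGN in each library, with DMSO in blue, C646 in red, a symbol for each replicate and a bar for the mean ± SD (n = 3). CTSG is higher in C646 in the lower panel, RNASE2 is lower in both, CST7 is lower in the upper panel and SRGN is lower in the lower panel.

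The T > C share of LYZ fell, while its total overlapped between groups and did not pass. All reads were 2898, 2898 and 2610 CPM in DMSO and 2884, 3061 and 3141 CPM in C646 (log2 0.11, approximate 95% interval −0.13 to 0.35; 0.067 without DMSO replicate 3). The T > C reads were 106, 97.2 and 85.4 CPM in DMSO and 70.0, 77.8 and 88.0 CPM in C646, overlapping, with a log2 fold change of −0.29 ± 0.15 (SE; edgeR, adjusted p = 0.0955) that turned to 0.54 and passed (adjusted p = 0.00489) when T > C reads were scaled among themselves. The T > C share fell from 3.43% ± 0.203 to 2.59% ± 0.192 (SD, n = 3), and the odds by 0.42 on the log2 scale (SE 0.096; edgeR, adjusted p = 0.000813), against a median of −1.004 over all genes.

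SERPINB1 T > C reads were 22.8, 26.8 and 20.1 CPM in DMSO and 14.8, 15.9 and 17.7 CPM in C646. The groups did not overlap, as for 55.8% of all tested genes in that direction. The log2 fold change of −0.52 ± 0.20 (SE) did not pass (edgeR, adjusted p = 0.0252). Its total was 270, 315 and 266 CPM in DMSO and 252, 254 and 230 CPM in C646, a log2 difference of −0.21 ± 0.13 (SE; edgeR, adjusted p = 0.231; −0.13 without DMSO replicate 2). For SERPINB1, LYZ and CST7 the sign of the difference in T > C reads turned positive when T > C reads were scaled among themselves.

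The azurophil genes with few reads could be compared in total RNA only. MPO had 487, 451 and 335 reads in DMSO and 352, 378 and 420 reads in C646, which is 51.3, 62.5 and 45.1 CPM against 46.6, 46.3 and 41.7 CPM (log2 −0.24 ± 0.16 (SE), edgeR, adjusted p = 0.261; log2 −0.11 without DMSO replicate 2). PRTN3 had 100, 45 and 60 reads in DMSO and 34, 40 and 25 reads in C646, 10.5, 6.24 and 8.08 CPM against 4.50, 4.90 and 2.48 CPM without overlap, and its log2 fold change of −1.09 ± 0.33 (SE) did not pass (edgeR, adjusted p = 0.0224; 0.00461 without the filter on low counts). The T > C reads of MPO went from 34 of 1273 reads to 17 of 1150, or 2.67% (95% Wilson interval 1.92% to 3.71%) to 1.48% (0.925% to 2.35%). PRTN3 had 1 T > C read of 99 in C646. ELANE had 8, 1 and 3 reads in C646 and AZU1 had 1, 0 and 3, too few to compare. In total RNA, 8 of the 10 genes were tested and 0 passed in either direction by edgeR, where 6.28% of all tested genes passed lower and 9.81% higher, and 1.88% and 5.89% with a log2 fold change of at least 1 in addition. The groups did not overlap for PRTN3, RNASE2, CST7 and SERPINB1, all lower in C646, where 23.1% of all tested genes were lower and 24.5% higher. At an unadjusted p under 0.05, 4 of the 8 did, PRTN3, RNASE2 and CST7 lower and CTSG higher, where 20.5% of all tested genes were lower and 22.1% higher. DESeq2 passed RNASE2 and CST7 lower and CTSG higher, where 8.95% and 10.9% of the genes it tested passed.

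In the odds of a T > C read, 6 genes were tested. SRGN and LYZ passed lower and CTSG passed higher, where 44.8% of all tested genes passed lower and 1.14% higher, and 38.3% and 0.79% with a log2 change of at least 1 in addition, which no granule gene reached. The T > C shares did not overlap between groups for SRGN, LYZ and RNASE2, lower in C646, and for CTSG, higher, where 64.5% of all tested genes were lower and 2.18% higher. CST7 stood at 0.37 ± 0.27 (SE; edgeR, adjusted p = 0.237), which was 0.063 without C646 replicate 3, 0.19 without DMSO replicate 1, 0.56 without DMSO replicate 2 and 0.63 without C646 replicate 1, and SERPINB1 at −0.33 ± 0.17 (SE; edgeR, adjusted p = 0.102). The log2 change in odds of the 6 genes thus ran from −0.998 for SRGN to 0.995 for CTSG.

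Further granule genes were read from lists of related genes. Of 9 other azurophil genes, 5 were tested in T > C reads (median log2 −1.24, against −0.83 over all tested genes) and 3 passed lower, where 38.0% of all tested genes did, and the α-defensin genes DEFA1, DEFA1B, DEFA3 and DEFA4 had 0 reads. PRSS57, a further neutrophil serine protease, had 65, 47 and 51 T > C reads in DMSO and 14, 12 and 12 in C646 (log2 −2.17). CD63, a granule membrane tetraspanin, fell by 1.31 on the log2 scale in T > C reads. CTSC, the peptidase that activates granule serine proteases including cathepsin G, fell by 1.24 in T > C reads while its total rose from 89.2 ± 8.84 to 168 ± 39.7 CPM (SD, n = 3; log2 0.91, edgeR, adjusted p = 0.00111).

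Among 15 specific and gelatinase granule genes, 1 was tested in T > C reads, CHI3L1, a secreted chitinase-like protein, which differed by 0.0037 (log2) and went from 515 ± 55.4 to 350 ± 83.6 CPM in all reads (SD, n = 3) without passing. Its odds of a T > C read rose by 0.57 (log2). Of 10 eosinophil, basophil and mast cell genes, 4 averaged 50 or more reads and 2 were tested in T > C reads. PRG2, the eosinophil major basic protein, fell by 1.82 (log2) in T > C reads from 13.7 ± 2.96 to 3.92 ± 1.82 CPM (SD, n = 3). RNASE3, the eosinophil cationic protein, was at 186 CPM in DMSO and 130.2 CPM in C646, and its log2 fold change of −1.04 ± 0.35 (SE) in T > C reads did not pass (edgeR, adjusted p = 0.0127). EPX, the eosinophil peroxidase, was at 37.9 and 23.1 CPM. RNASE3, EPX and TPSB2 were named after their values were seen. In total RNA, PRG2 was 684 ± 99.5 CPM in DMSO and 373 ± 150 CPM in C646. Of the mast cell genes, TPSB2 was at 20.4 CPM in DMSO and 12.3 CPM in C646, while TPSAB1, CPA3 and CMA1 had at most 3 reads in every library, and of 7 lymphoid granule genes 0 were tested in T > C reads.

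Among 14 protease inhibitors of myeloid cells, 5 were tested in T > C reads (median log2 −1.14), with 2 lower and 1 higher, where 38.0% and 3.83% of all tested genes passed. CSTB, the cytosolic cystatin B, rose from 3.61 ± 1.68 to 9.09 ± 2.09 CPM in T > C reads (log2 1.34) and from 42.6 ± 12.6 to 139 ± 10.7 CPM in all reads (SD, n = 3; log2 1.70). SERPINB8 fell by 1.84 and CST3, cystatin C, by 1.14 (log2) in T > C reads, and SERPINB10 rose by 1.79 (log2) in all reads. Of 27 lysosomal hydrolases and cathepsins, 21 were tested (median log2 −0.47) and 6 passed lower (38.0% of all tested genes did), with CTSA at −2.82, GUSB at −2.26 and MAN2B1 at −2.19 (log2), and 0 passed higher. Of 24 genes of granule sorting and secretion, 22 were tested (median log2 −0.75) and 6 passed lower, again beside 38.0%, among them the AP-3 adaptor subunits AP3D1 (−2.92) and AP3M1 (−1.36), SYTL1 (−2.25) and HPS4 (−1.47).

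A further list held 15 regulators of transcription in blood cells, not all of which are known to act on granule genes. Of these, 13 were tested in T > C reads, 10 passed lower and 1 higher, where 38.0% and 3.83% of all tested genes did. The list's median log2 fold change was −1.25 against −0.83 over all genes. SPI1, the gene of PU.1, fell from 13.9 ± 3.13 to 1.51 ± 0.362 CPM in T > C reads (SD, n = 3; log2 −3.21), with a log2 fold change of −1.07 in all reads. The log2 fold changes in T > C reads were −4.35 for NFE2, −2.01 for GFI1, a repressor of the monocytic programme, and −1.86 for PML. IRF8 fell by 1.25 in T > C reads, while its total rose from 89.0 ± 35.2 to 233 ± 29.2 CPM (SD, n = 3; log2 1.39).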

How the data were processed

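SLAM-seq 3′ end libraries of MOLM-13 cells, 3 with DMSO and 3 with C646, were grouped by their labels. Per the file headers and the study's methods, the authors used SLAM-Dunk v0.4.1 for alignment on GRCh38 and deposited, for each of 58136 3′ UTR entries, raw counts of reads, T > C reads, conversions and multimapped reads. The deposited coverage signal on T positions and the authors' CPM, which is scaled by filtered reads, served for conversions per T and for the share of reads on 3′ UTRs. The processing notes also name CASAVA 1.9. The deposited T > C read count includes reads with a single conversion (of entries over 1000 bases with 1 T > C read, 56.2% held 1 conversion), whereas the study's methods tested reads with more. The T content is listed as 0 in C646 replicate 3 and was not used from it.

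Counts were summed per gene, and symbols were matched for 25310 of 25420 genes. The genes described and the further lists were chosen with earlier results of these data known. edgeR 4.0.16 in R 4.3.3 (filterByExpr, TMM, glmQLFit with its legacy method, glmQLFTest, Benjamini-Hochberg) was fitted on all genes and tested on simulated data. TMM-scaled totals of all reads served for T > C reads too. The odds were fitted on both classes of reads, T > C or not, with 1 factor for libraries and an interaction of class and treatment. A gene passed at an adjusted p of at most 0.01 and was called where the log2 fold change was also 1 or more in size. SEs are the absolute log2 fold change over the square root of F, and approximate intervals are ± 1.96 SE. A tested gene had a median of 35 T > C reads in a library, which sets the precision. Named besides the 10 genes were, per list, up to 4 called genes by size in T > C reads and up to 2 in all reads, or where none was called the 2 with the most reads. The values of 1 gene so chosen are not reported here. The defensins, CD14, CSF2RA and other genes at the floor were named as absent after their values were seen. Alternatives were other scalings, DESeq2 1.42.0, filters, the single most read entry, a replicate block and each library left out. Replicates differed by 6.51 to 22.0 times the noise of counting (chi-square over its degrees of freedom), so each was counted as 1 sample and none was left out. Python 3.11.15, pandas 2.3.3, scipy 1.17.1 and matplotlib 3.10.9 were used.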

Additional observations from a re-analysis of the deposited data

How the results depend on the processing

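What depends on scaling is the T > C comparison. Scaling T > C reads by TMM or DESeq2's factors among themselves, which takes out what most genes share, left 0 and 0 of the granule genes passing lower and 2 and 2 higher (CTSG and LYZ), where 9.08% and 5.60% of all tested genes passed lower and 11.3% and 7.97% higher. Called with a log2 of at least 1 were 604 and 463 of all genes lower and 708 and 642 higher. LYZ then stood at 0.54 and 0.52, CST7 at 0.50 and 0.47, and SERPINB1 at 0.31 and 0.29 (log2), against −0.10 and −0.13 for SRGN and −0.047 and −0.071 for RNASE2. CTSG kept its direction and passed in all 15 alternatives (1.28 to 2.31). With at least 50 T > C reads, 1038 genes were called lower and 125 higher, since fewer genes were tested. In all reads, no filter, the replicate block and DESeq2 gave 3, 2 and 2 granule genes passing lower (7.21%, 10.9% and 8.95% of all tested genes) and 1, 1 and 1 higher (9.46%, 13.5% and 10.9%); leaving out a library gave 0 to 2 lower (1.93% to 7.06% of all) and 0 to 1 higher (5.57% to 9.73%), with 120 (without DMSO replicate 2) to 321 (without C646 replicate 1) of all genes called lower. The cause was not tested. SRGN in all reads, at 0.0095, turned to −0.0071 with plain totals, −0.012 without DMSO replicate 2 and −0.0081 without C646 replicate 3 (range without a library −0.012 to 0.039). The replicate block made CTSG (adjusted p = 0.00195), CST7 (0.000454) and RNASE2 (0.000175) pass in all reads by edgeR and changed no other call; the numbers were not taken to pair the libraries, since not every pair correlated above 0.1: deviations of same-numbered libraries correlated at 0.030 to 0.065 in T > C reads and −0.0014 to 0.23 in all reads, and 6 of 6 and 3 of 6 libraries correlated best with their own number, a hint of pairing from the data and not the design. Of the values of single genes, 250 kept direction and side, 14 passed, 4 no longer passed, 9 changed sign and 3 percentiles moved. Depth leaves MPO, PRTN3, ELANE and AZU1 without a test of new RNA.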
